A study of Caenorhabditis elegans with 4 samples.

Results

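The 8 genes described here carry the endocrine signals that decide whether a *Caenorhabditis elegans* larva grows on or enters dauer, the long-lived arrested larval form. They were taken by name, as 8 of the 21895 gene rows of the count table. They comprise the insulin receptor gene *daf-2*, the FOXO transcription factor gene *daf-16*, the ligand genes *daf-28* and *daf-7*, the nuclear receptor gene *daf-12*, the steroid hormone synthesis genes *daf-9* and *daf-36*, and the pheromone synthesis gene *daf-22*. Wild-type worms of strain Bristol N2 spent 24 h shaking in M9 buffer, either with 0.25 mg/mL of Cyclo(Pro-Tyr), a cyclic dipeptide, or with DMSO, its solvent, and 2 libraries were made from whole animals of each group. Nothing else distinguished the groups in the labels, which give an incubation at 19 °C, while the series text gives 20 °C. For age the series text says only that embryos or L1 larvae were exposed, and the labels do not say whether the libraries came from separate cultures, so p-values measure the spread between these libraries, which may be technical.

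In favourable conditions, sensory neurons release the insulin-like peptide DAF-28 and the TGF-beta family ligand DAF-7. DAF-28 acts through the receptor DAF-2 and a kinase cascade that keeps DAF-16 out of the nucleus. Both branches feed into the synthesis of dafachronic acids, sterol hormones made from cholesterol by DAF-36, DAF-9 and other enzymes, which bind the nuclear receptor DAF-12 and promote reproductive growth. DAF-22 works upstream of all of these, in the peroxisomal shortening of the fatty acid side chains of ascarosides, the secreted pheromones that report crowding and favour dauer.

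The libraries held between 40240674 and 52987317 counts in genes. All 8 genes passed the filter on low counts, together with 19439 genes in all. Levels are given as CPM, counts relative to library size, scaled by TMM, a normalisation for library composition, and fold changes as log2 of Cyclo(Pro-Tyr) over DMSO from edgeR's quasi-likelihood test, with p-values adjusted over all 19439 genes and a threshold of 0.05. Markers of neurons, intestine, epidermis, muscle and germline were all detected. The summed level of 9 genes listed as markers of moulting and cuticle stage was 520 and 732 CPM in DMSO replicates 1 and 2. It was 425 and 174 CPM in Cyclo(Pro-Tyr) replicates 1 and 2. Exons of *dpy-10* in this list share 780 of 1593 bases with another gene on the same strand, so its counts are uncertain. Of these 9 genes, 8 had a negative log2 fold change, the median of the list was -0.65, and none of the 9 was at 0. The median was -1.08 when Cyclo(Pro-Tyr) replicate 1 was left out and -0.38 when replicate 2 of that group was. Of 6 early embryo genes 5 had a negative log2 fold change, with a median of -0.50, which was -0.79 without DMSO replicate 1 and -0.29 without DMSO replicate 2. Their sum was 41.05 and 40.4 CPM in DMSO against 34.02 and 30.2 in Cyclo(Pro-Tyr), again with none at 0. Most of that sum was *hlh-1*, at 27.6 and 25.7 CPM in DMSO against 24.6 and 21.5 in Cyclo(Pro-Tyr). Of the 6 genes 4 were below both DMSO libraries in both treated ones, and *end-1* and *med-1* overlapped between the groups. Both sums were lower in each treated library than in either DMSO library. By edgeR 1 of these 15 markers passed the threshold, the early embryo gene *pes-10*, as lower. The part of stage in the results that follow was not tested. In RNA from whole worms, fewer cells of a type and less RNA per cell cannot be told apart.

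Of the 8 genes, 7 had a positive log2 fold change, where 49.7% of all tested genes did, and 1 a negative one, where 50.3% did. The level of *daf-16* rose 1.68-fold, and it was the only one of the 8 genes past the threshold. The *daf-12*, *daf-2*, *daf-9* and *daf-7* levels were each above both DMSO libraries in both treated libraries without passing it. The *daf-22* level was below both, and *daf-28* and *daf-36* overlapped between the groups. That is 1 gene of 8 called, in a comparison that called 2.05% of all tested genes, 0.715% as higher and 1.33% as lower. At an unadjusted p under 0.05 by edgeR there were 5 of the 8 genes, 4 higher and 1 lower, where the share of all tested genes was 27.3%. The groups did not overlap for 6 of the 8, where 60.5% of all tested genes did the same, so that the absence of overlap alone does not set these genes apart. The median log2 fold change of the 8 genes was 0.40, against -0.0032 over all tested genes.

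**Figure D1:**
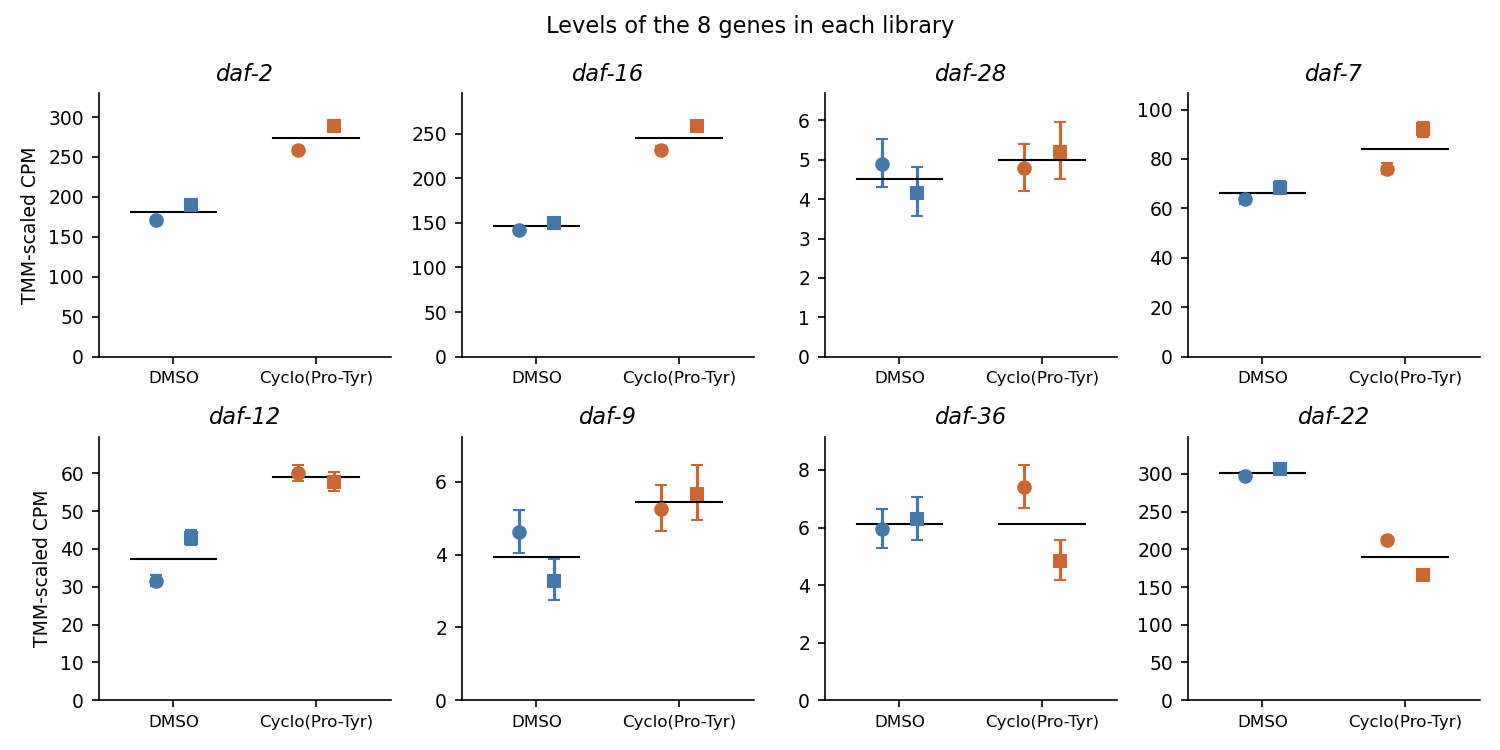
Level of each of the 8 genes in each library, in TMM-scaled CPM on axes that start at 0. Circles are replicates 1 and squares replicates 2, horizontal lines are group means, and bars are exact Poisson intervals of 95% that cover counting error only. Both treated libraries lie above both DMSO libraries for *daf-2*, *daf-16*, *daf-7*, *daf-12* and *daf-9* and below them for *daf-22*.

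The receptor DAF-2 is the single insulin and IGF receptor homologue of the worm, and its loss gives constitutive dauer arrest and long life. The *daf-2* gene (CELE_Y55D5A.5) had 172 and 190 CPM in DMSO replicates 1 and 2 and 259 and 289 CPM in Cyclo(Pro-Tyr) replicates 1 and 2. Both treated libraries were higher, and the 4 differences between a treated and a DMSO library ran from 0.44 to 0.75 on the log2 scale, where replicates of a group differed by 0.15 and 0.16. The log2 fold change was 0.60 ± 0.12 (SE), and edgeR gave 0.0529 as its adjusted p, just over the threshold. It was under the threshold in 4 of the 10 other settings on all 4 libraries, at an adjusted p of 0.0493 by limma-voom and 0.00155 by DESeq2's Wald test among them. The log2 fold change of *daf-2* was 0.53 without DMSO replicate 1 and 0.67 without DMSO replicate 2. It was 0.67 without Cyclo(Pro-Tyr) replicate 1 and 0.52 without replicate 2 of that group.

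DAF-16 is the FOXO factor that DAF-2 signalling restrains, required for the long life of *daf-2* mutants. The *daf-16* gene (CELE_R13H8.1) had 142 and 150.1 CPM in DMSO against 232 and 258 in Cyclo(Pro-Tyr). The lowest treated library was higher than the highest DMSO library by 0.63 on the log2 scale, the widest such gap among the 7 genes with a positive fold change. The mean went from 146 ± 5.81 to 245.1 ± 18.7 CPM (SD, n = 2), which is 0.75 ± 0.11 (SE) on the log2 scale with 0.0355 as the adjusted p by edgeR. A higher log2 fold change was found in 3.44% of all tested genes. Among other settings, the call was lost under a filter of 5 CPM in 2 libraries, at an edgeR adjusted p of 0.0671, and it was also lost without DMSO replicate 1, at 0.219, and without DMSO replicate 2, at 0.339, with 1.81e-05 to 0.339 as the span over its alternatives. The log2 fold change itself stayed between 0.67 and 0.82 over its alternatives.

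The levels of *daf-16* and *daf-2* were also compared within each library. The ratio of *daf-16* counts to *daf-2* counts within a library, which no scaling of libraries can alter, was 0.826 and 0.788 in DMSO and 0.897 and 0.895 in Cyclo(Pro-Tyr), higher in both treated libraries. No test of this ratio was run. Exons of *daf-16* overlap a non-coding RNA on the opposite strand over 84 of 3685 bases in the annotation, and since the use of strand in counting is not given in the sources used here, counts there are uncertain.

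**Figure D2:**
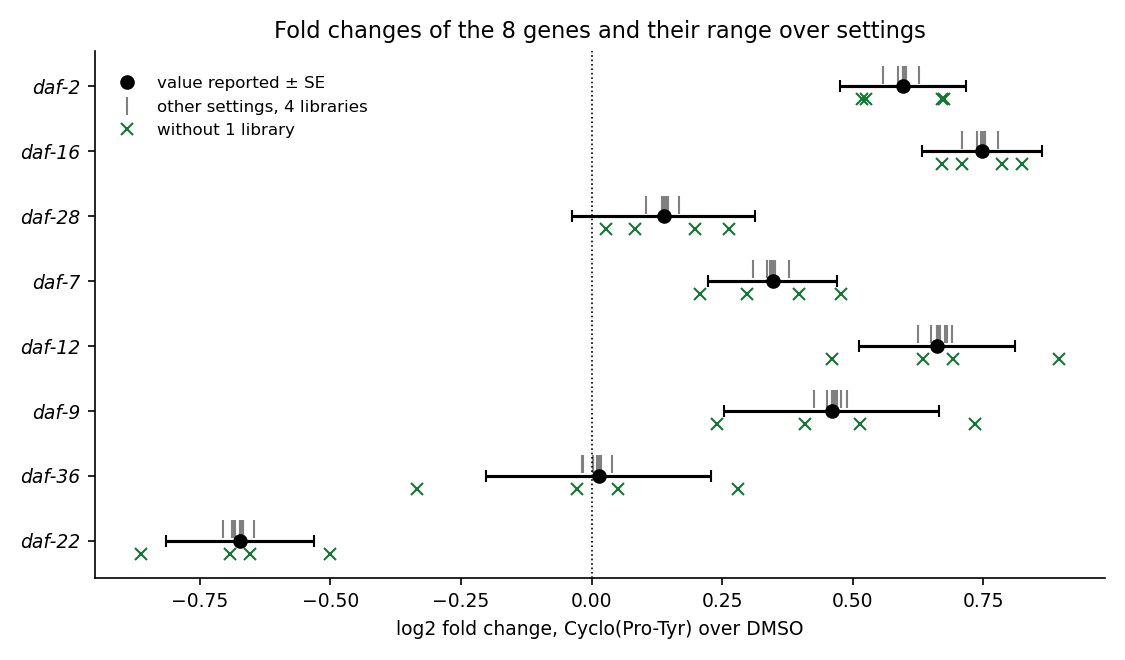
Log2 fold change of each of the 8 genes, Cyclo(Pro-Tyr) over DMSO. Black points with bars are the reported values ± standard error, grey ticks the other settings on all 4 libraries and green crosses the fits without 1 library. The values of *daf-36* fall on both sides of 0, and those of each other gene stay on 1 side.

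Among the ligand genes, *daf-28* and *daf-7* are both known from a few pairs of head sensory neurons. The *daf-7* gene (CELE_B0412.2) had 63.8 and 68.5 CPM in DMSO against 76.1 and 92.04 in Cyclo(Pro-Tyr). Both treated libraries were higher, by 0.15 to 0.53 on the log2 scale, and Cyclo(Pro-Tyr) replicate 2 stood above replicate 1 by 0.27, so the spread within the treated group exceeded the smallest difference between groups. The log2 fold change of *daf-7* was 0.35 ± 0.12 (SE), and edgeR gave 0.126 as its adjusted p. It was 0.21 when Cyclo(Pro-Tyr) replicate 2 was left out, with an edgeR adjusted p of 0.495, and 0.48 when replicate 1 of that group was, where it passed the threshold at 0.0135. The *daf-28* gene (CELE_Y116F11B.1), which encodes an agonist of DAF-2, was counted with 251 and 180 reads in DMSO and 255 and 203 in Cyclo(Pro-Tyr), or 4.88, 4.16, 4.79 and 5.20 CPM. The groups overlapped, and the log2 fold change of *daf-28* was 0.14 ± 0.18 (SE), with 0.647 as the adjusted p by edgeR. Exact Poisson intervals for *daf-28* spanned 3.57 to 4.81 CPM in the lowest library and 4.51 to 5.97 CPM in the highest. Its log2 fold change was 0.26 without DMSO replicate 1 and 0.028 without DMSO replicate 2. The markers of the ASI and ASJ sensory neurons, *str-3*, *gpa-4*, *trx-1* and *ssu-1*, summed to 23.2 and 20.6 CPM in DMSO against 23.7 and 23.6 in Cyclo(Pro-Tyr), with 3 of 4 fold changes positive and none of the genes at 0. A sum of 8 pan-neuronal markers was 983 and 954 CPM in DMSO against 1062 and 1097 in Cyclo(Pro-Tyr), with 6 of 8 fold changes positive. The part of these small differences in the level of *daf-7* was not tested.

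DAF-12 is a nuclear receptor that represses reproductive growth without its hormone and promotes it when bound. The *daf-12* gene (CELE_F11A1.3) had 31.7 and 42.9 CPM in DMSO against 60.04 and 57.8 in Cyclo(Pro-Tyr). The treated libraries lay close together, 0.055 apart on the log2 scale, while the DMSO libraries differed by 0.44, about as much as the smallest difference between groups, 0.43. The log2 fold change of *daf-12* was 0.66 ± 0.15 (SE), and edgeR gave 0.0593 as its adjusted p. It was 0.46 without DMSO replicate 1 and 0.89 without DMSO replicate 2. With Cyclo(Pro-Tyr) replicate 1 left out it was 0.64, and with replicate 2 of that group left out 0.69. The adjusted p of *daf-12* was under the threshold in 2 of the 10 other settings on all 4 libraries. Of the 8 genes *daf-12* had the widest range over the 4 libraries, 0.92 in log2 CPM. The 3 tested genes whose log2 CPM, centred on each gene's own mean, lay nearest to that of *daf-12* over the 4 libraries were ZC317.1, *cyp-34A7* and CELE_F48B9.1. Their root mean square differences from *daf-12* were 0.0050, 0.024 and 0.025. With 4 libraries such likeness is a description only, and ZC317.1 had no more than 1.18 CPM in any library.

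The hormone synthesis genes had the lowest levels of the 8 per exon length, as given further on. DAF-9, a cytochrome P450, makes dafachronic acids from their last precursors, in the XXX cells of the head and in the epidermis. The *daf-9* gene (CELE_T13C5.1) had 237 and 142 counts in DMSO and 280 and 221 in Cyclo(Pro-Tyr), or 4.61, 3.28, 5.26 and 5.66 CPM. Both treated libraries were higher, and DMSO replicate 2 stood apart as the lowest of the 4. The log2 fold change of *daf-9* was 0.46 ± 0.21 (SE), and edgeR gave 0.194 as its adjusted p. The fold change ranged from 0.24 without DMSO replicate 2 to 0.73 without DMSO replicate 1. The 4 XXX cell markers *sdf-9*, *eak-3*, *eak-4* and *eak-6* summed to 27.1 and 26.01 CPM in DMSO against 30.2 and 33.8 in Cyclo(Pro-Tyr), with all 4 fold changes positive and none of the genes at 0, and their part in the *daf-9* level was not tested. The 4 epidermal markers *elt-3*, *lin-26*, *dpy-7* and *nhr-25* summed to 215 and 235.1 CPM in DMSO against 209 and 148 in Cyclo(Pro-Tyr), with 2 of 4 fold changes positive and none of the genes at 0. The lower sum came with *dpy-7*, a cuticle collagen gene, at -1.37 on the log2 scale with an edgeR adjusted p of 0.0792.

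DAF-36 is a Rieske-type oxygenase that begins the pathway by desaturating cholesterol, and it is known chiefly from the intestine. The *daf-36* gene (CELE_C12D8.5) had 5.93 and 6.28 CPM in DMSO against 7.40 and 4.84 in Cyclo(Pro-Tyr). The treated libraries lay on either side of the DMSO pair, 0.61 apart on the log2 scale against 0.083 in DMSO. The log2 fold change of *daf-36* was 0.014 ± 0.22 (SE), and edgeR gave 0.972 as its adjusted p. The value depends on the treated library used, at 0.28 when Cyclo(Pro-Tyr) replicate 2 was left out and -0.33 when replicate 1 of that group was. Its exons overlap a coding gene on the opposite strand over 9 of 1381 bases.

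DAF-22 is the peroxisomal thiolase that completes each round of ascaroside side chain shortening. The *daf-22* gene (CELE_Y57A10C.6) had 297 and 306 CPM in DMSO against 213 and 166 in Cyclo(Pro-Tyr). Both treated libraries were lower, by 0.48 to 0.88 on the log2 scale, and the treated libraries differed from each other by 0.36. The mean was 302 ± 6.30 CPM in DMSO against 189 ± 33.1 in Cyclo(Pro-Tyr) (SD, n = 2), which is -0.67 ± 0.14 (SE) on the log2 scale with 0.0544 as the adjusted p by edgeR. The adjusted p was under the threshold in 3 of the 10 other settings on all 4 libraries, and the log2 fold change was -0.50 when Cyclo(Pro-Tyr) replicate 2 was left out and -0.86 when replicate 1 of that group was, where alone of the fits without 1 library it passed the threshold, at an edgeR adjusted p of 1.22e-04. The library with the lower *daf-22* level was also the one with the lowest sum of moulting markers. The sum of 6 intestinal markers was 2703 and 2628 CPM in DMSO against 2561 and 2742 in Cyclo(Pro-Tyr), with 5 of 6 fold changes positive and none of the genes at 0. Most of that sum was *ifb-2*, an intermediate filament gene, at 1443 to 1707 CPM. The 1 marker with a negative fold change, the microvillar actin gene *act-5*, had 580.5 and 563 CPM in DMSO against 441 and 352 in Cyclo(Pro-Tyr). That is -0.53 on the log2 scale with an edgeR adjusted p of 0.0788, below both DMSO libraries in both treated ones, as *daf-22* was. The marker *ges-1* lay above both DMSO libraries in both treated ones, at 60.9 and 51.8 CPM against 75.7 and 103.9. Its log2 fold change was 0.67, with an edgeR adjusted p of 0.0668. The part of intestinal content in the *daf-22* level was not tested.

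Levels can be compared between genes only per length, here CPM per kb of annotated exon, merged over all transcripts of a gene. In DMSO the order was *daf-22* at 226, *daf-7* at 40.2, *daf-16* at 39.6, *daf-2* at 21.8, *daf-12* at 8.39, *daf-28* at 5.90, *daf-36* at 4.42 and *daf-9* at 1.91 CPM per kb. The neighbours *daf-7* and *daf-16* overlapped between their DMSO libraries, while every other pair of neighbours was separate. In Cyclo(Pro-Tyr) the *daf-16* level was 66.5 CPM per kb and the *daf-7* level 51.1, with the 2 *daf-16* libraries above the 2 *daf-7* libraries, so their places were exchanged, and the order of the other 6 genes was as in DMSO. Merged exon length covers 11 transcripts for *daf-16*, 10 for *daf-12* and 7 for *daf-2*, against 1 each for *daf-7*, *daf-36* and *daf-22*, so that levels per kb of the first 3 are low estimates.

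**Figure D3:**
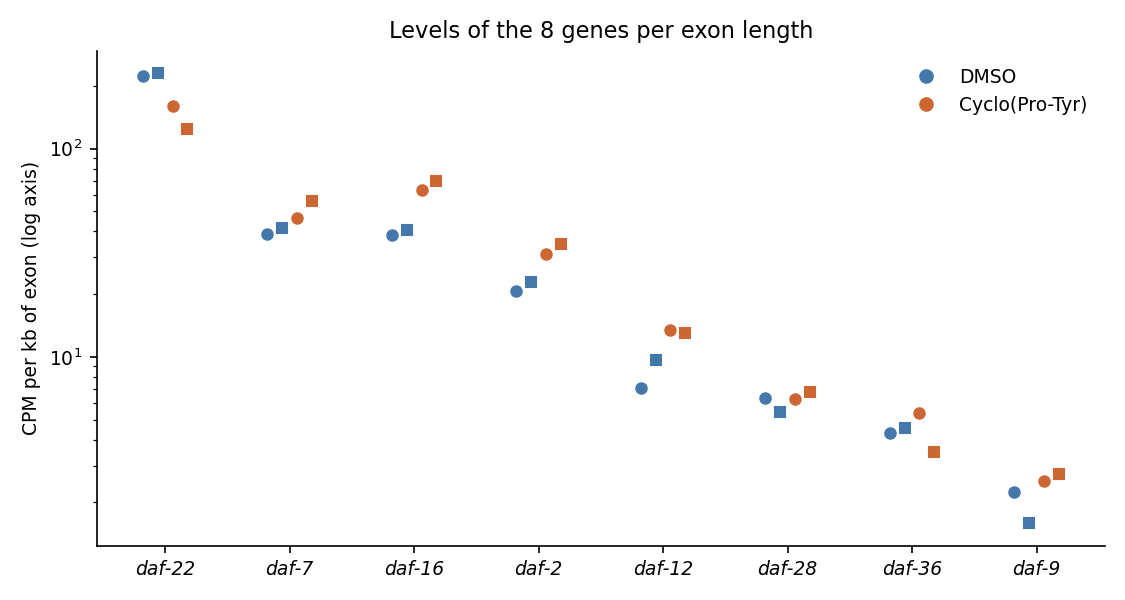
Level of each gene per kb of exon in the 4 libraries, on a log axis, with genes ordered by their DMSO mean. Blue is DMSO and orange Cyclo(Pro-Tyr), circles are replicates 1 and squares replicates 2. The *daf-22* level is highest in every library and *daf-9* lowest.

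No listed partner gene of *daf-22* in ascaroside synthesis passed the edgeR threshold over all genes. All 10 listed genes of acyl side chain activation and peroxisomal beta-oxidation were below both DMSO libraries in both treated libraries, where 30.8% of all tested genes were, and their median log2 fold change was -0.45. This list, like the others, was chosen with earlier results of these data known, so the comparison with all genes is a description only. By edgeR 8 of the 10 had an unadjusted p under 0.05, where 14.3% of all tested genes were lower at that level. DESeq2's Wald test called 5 as lower, where it called 998 of all 19439 tested genes as lower, while limma-voom called 0. The hydratase gene *maoc-1* (CELE_E04F6.3), whose product acts before DAF-22 in the same cycle, had 305 and 313 CPM in DMSO against 220.4 and 206 in Cyclo(Pro-Tyr), or -0.54 on the log2 scale with 0.0537 as the adjusted p by edgeR. The dehydrogenase gene *dhs-28*, for the step between them and named after its values were seen, had 463 and 444 CPM in DMSO against 355 and 309 in Cyclo(Pro-Tyr), or -0.45 on the log2 scale. Of the acyl-CoA oxidase genes, which open the cycle, *acox-1.2* (CELE_F08A8.2) had 24.3 and 34.5 CPM in DMSO against 17.7 and 13.7 in Cyclo(Pro-Tyr), or -0.90 on the log2 scale with 0.0559 as the adjusted p by edgeR. The smallest difference was that of *acs-7*, an acyl-CoA synthetase gene named for that reason, at -0.29. Cyclo(Pro-Tyr) replicate 2 was the lowest library for 10 of the 11 genes with *daf-22* included, all but *acox-1.4*, and it was also lowest for the moulting markers. The median of the 10 listed genes was -0.35 when Cyclo(Pro-Tyr) replicate 2 was left out and -0.57 when replicate 1 of that group was. Each listed gene that was tested had a negative log2 fold change in each of the 15 settings used. The filter of 5 CPM in 2 libraries tested 9 of the 10. The *acox-1* genes are close relatives, so the split of reads between them is uncertain, and the exons of *maoc-1* and *dhs-28* overlap coding genes on the opposite strand over 105 of 1063 and 76 of 1409 bases.

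**Figure D4:**
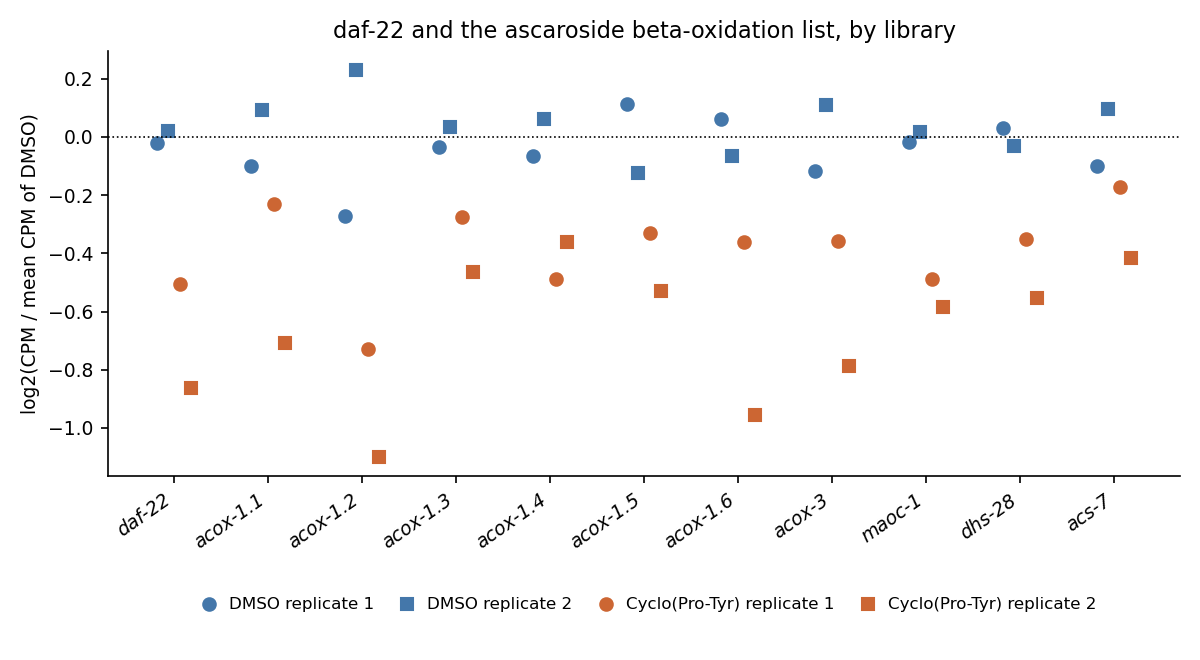
Level of *daf-22* and of the 10 listed ascaroside beta-oxidation genes in each library, as log2 of CPM over the gene's DMSO mean. Blue is DMSO and orange Cyclo(Pro-Tyr), circles are replicates 1 and squares replicates 2. Every orange point lies below both blue points of its gene.

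In the kinase cascade below DAF-2 all listed genes but *ist-1* had smaller log2 fold changes than *daf-2*. Of the 13 listed genes 1 was called, as higher, where 0.715% of all tested genes were. By edgeR 3 of the 13 had an unadjusted p under 0.05, all higher, where 13% of all tested genes were higher at that level. Their median log2 fold change was 0.18. The called gene was *ist-1* (CELE_C54D1.3), a homologue of the insulin receptor substrates. It rose from 78.7 and 81.3 CPM in DMSO to 116 and 127 CPM in Cyclo(Pro-Tyr), which is 0.60 ± 0.10 (SE) on the log2 scale with 0.0451 as the adjusted p by edgeR, close to the value of *daf-2*. The call of *ist-1* was lost in 5 of its 14 alternatives. It did not hold when total counts replaced TMM, where edgeR gave an adjusted p of 0.0527, or without either DMSO replicate, at 0.222 and 0.351, with 5.12e-04 to 0.351 as the span over its alternatives. For *smk-1*, which encodes a cofactor of DAF-16, the log2 fold change was 0.34 with an edgeR adjusted p of 0.146. Exons of *smk-1* share 192 of 4319 bases with an antisense gene and 134 with a small nucleolar RNA on the same strand, so its counts are uncertain whatever the use of strand.

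Of 14 other insulin-like peptide genes, 12 passed the filter on low counts, and 10 of the 12 had a positive log2 fold change, with a median of 0.34. By edgeR none of them was called and 4 had an unadjusted p under 0.05, all higher, against 13% of all tested genes. DESeq2's Wald test called 1 as higher, where it called 791 of all 19439 tested genes as higher, and limma-voom called 0. The lowest p belonged to *ins-3* (CELE_ZK75.3), at 10.1 and 9.13 CPM in DMSO against 12.99 and 15.2 in Cyclo(Pro-Tyr), or 0.55 on the log2 scale with 0.0719 as the adjusted p by edgeR. The next was *ins-35*, at 0.43 with an edgeR adjusted p of 0.129. The median of these peptide genes was 0.21 when Cyclo(Pro-Tyr) replicate 2 was left out and 0.44 when replicate 1 of that group was.

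The receptors and Smad proteins through which DAF-7 acts were compared as a list of 6 genes. For all 6 both treated libraries were above both DMSO libraries, where 29.6% of all tested genes were, and the median log2 fold change was 0.31. By edgeR none was called and 4 of the 6 had an unadjusted p under 0.05, all higher, where the share of all tested genes was 13%. DESeq2's Wald test called 2 as higher, where it called 791 of all 19439 tested genes as higher, and limma-voom called 0. The receptor gene *daf-4* (CELE_C05D2.1) had 102 and 95.2 CPM in DMSO against 128 and 135 in Cyclo(Pro-Tyr), or 0.42 on the log2 scale with 0.0689 as the adjusted p by edgeR. The Sno/Ski family gene *daf-5* (CELE_W01G7.1), which together with the Smad gene *daf-3* opposes the *daf-7* signal, had 192 and 186 CPM in DMSO against 249.8 and 248.8 in Cyclo(Pro-Tyr), or 0.40 on the log2 scale with 0.0743 as the adjusted p by edgeR. The list thus holds genes that pass on the DAF-7 signal and genes that oppose it, with positive fold changes in both. For *daf-5* the means were 189 ± 4.004 and 249 ± 0.774 CPM (SD, n = 2).

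The 14 listed genes of pheromone reception and sensory signalling upstream of the ligands went both ways, 8 with a positive and 6 with a negative log2 fold change. By edgeR none was called and 5 of the 14 had an unadjusted p under 0.05, 4 higher and 1 lower, a count near the 27.3% of all tested genes, and DESeq2's Wald test and limma-voom called 0. The lowest p values were those of the G protein gene *gpa-3*, at 0.46 on the log2 scale and an adjusted p by edgeR of 0.0839, and of the guanylyl cyclase gene *daf-11*, with 0.35 and 0.110.

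Among 9 other genes listed for dafachronic acid synthesis and sterol supply, 8 were tested. Their log2 fold changes were positive for 5 and negative for 3, with a median of 0.16. These 8 include *din-1*, for a cofactor of DAF-12 rather than an enzyme or transporter, at 0.20 and with overlapping groups. By edgeR 1 of the 8 was called, as higher, where 0.715% of all tested genes were. The called gene was *ncr-2* (CELE_F09G8.4), a homologue of the Niemann-Pick cholesterol transporter. It rose from 11.98 and 14.4 CPM in DMSO to 22.1 and 20.9 CPM in Cyclo(Pro-Tyr), which is 0.70 ± 0.14 (SE) on the log2 scale with 0.0484 as the adjusted p by edgeR. The call of *ncr-2* was lost in 6 of its 14 alternatives, within a range of adjusted p from 0.00223 to 0.339, among them total counts in place of TMM, at 0.0629, and the fits without DMSO replicate 1, at 0.227, and without DMSO replicate 2, at 0.339. The *strm-1* gene (CELE_H14E04.1), for a sterol methyltransferase that diverts sterols from hormone synthesis, had 20.8 and 23.4 CPM in DMSO against 15.7 and 12.63 in Cyclo(Pro-Tyr), or -0.64 on the log2 scale with 0.0595 as the adjusted p by edgeR.

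DAF-16 protein acts in the nucleus, and genes that are known to follow its activity were listed too. Of 20 listed genes that are known to be higher when DAF-16 is active, 19 were tested, 10 with a positive and 9 with a negative log2 fold change, and their median was 0.011, against -0.0032 over all tested genes. That median was 0.10 without DMSO replicate 1 and -0.10 without DMSO replicate 2, so it has no settled sign. The called genes went apart, 1 of the 19 as higher and 1 as lower. Over all tested genes edgeR called 0.715% as higher and 1.33% as lower. The gene *hsp-12.6*, for a small heat shock protein (CELE_F38E11.2), rose from 28.9 and 23.1 CPM in DMSO to 47.2 and 60.8 CPM in Cyclo(Pro-Tyr), or 1.05 on the log2 scale with 0.0355 as the adjusted p by edgeR. The related gene *sip-1* (CELE_F43D9.4) fell from 99.5 and 98.8 CPM to 58.8 and 65.7 CPM, or -0.67 on the log2 scale with 0.0369 as the adjusted p by edgeR. Of 14 listed genes known to be lower when DAF-16 is active, 8 had a positive and 6 a negative log2 fold change, with a median of 0.030. By edgeR 1 of these 14 was called, as lower, where 1.33% of all tested genes were. With total counts in place of TMM both medians turned negative, at -0.024 and -0.0060. The called gene of this second list was *pes-2.1* (CELE_F56G4.2), which fell from 18.4 and 20.03 CPM in DMSO to 8.58 and 6.33 CPM in Cyclo(Pro-Tyr), or -1.36 on the log2 scale with 0.0332 as the adjusted p by edgeR. The yolk protein gene *vit-2* was low in all libraries, at 2.59 and 3.49 CPM in DMSO against 1.502 and 1.20 in Cyclo(Pro-Tyr), or -1.14 on the log2 scale with 0.0580 as the adjusted p by edgeR. The calls of *hsp-12.6*, *sip-1* and *pes-2.1* were each lost without DMSO replicate 1, without DMSO replicate 2 and under the filter of 5 CPM in 2 libraries, with edgeR adjusted p up to 0.339. Exons of *sip-1* overlap a non-coding antisense RNA over 123 of 640 bases.

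**Figure D5:**
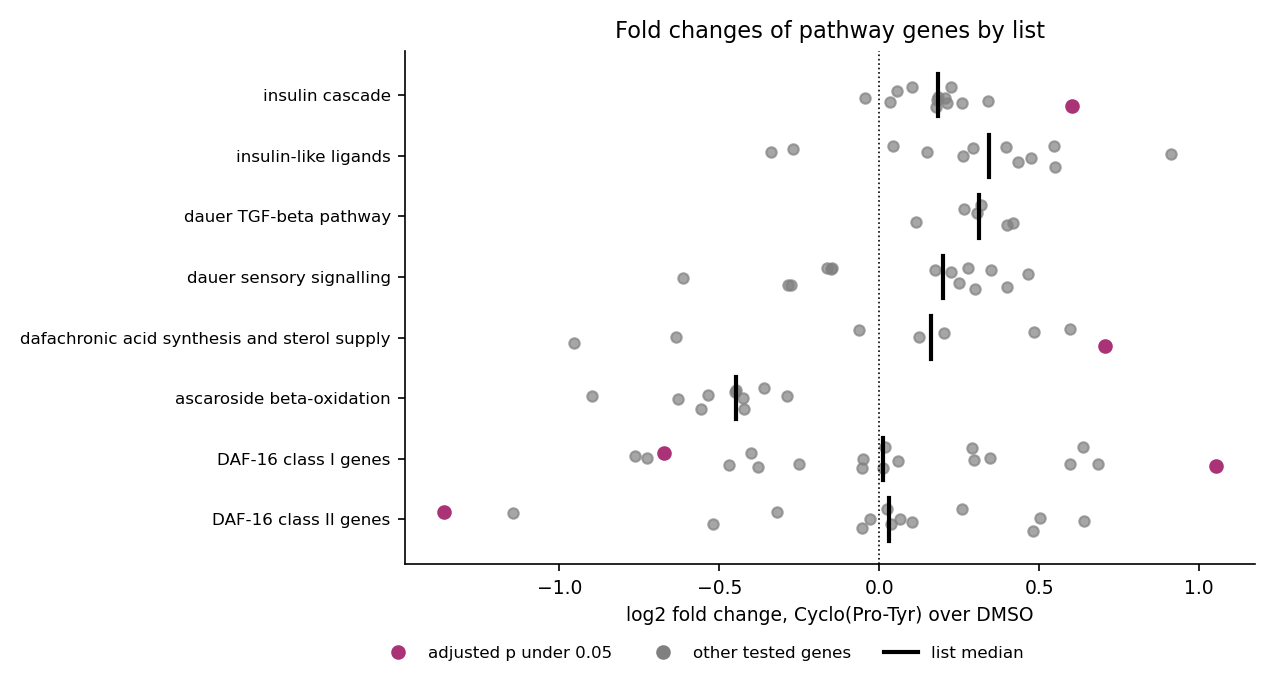
Log2 fold change of each tested gene of the 8 pathway lists, Cyclo(Pro-Tyr) over DMSO, with vertical bars at list medians and scatter in height only for legibility. Genes past an adjusted p of 0.05 are in purple, 5 of the 96 tested. All 10 ascaroside genes lie left of 0 and all 6 TGF-beta pathway genes right of it, while both DAF-16 lists spread to both sides.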

How the data were processed

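RNA was sequenced from 4 libraries of whole N2 worms. The kit was a stranded one for total RNA, with single-end reads, per the labels' protocols. The authors deposited raw counts of reads per gene, not normalised, in 21895 rows of locus tags, and no column was left unused. Bowtie2 and SAMtools are named in the submitters' processing notes. How reads were counted, on which build and annotation, and whether by strand, is not given in the sources used here, so no coordinates are printed. Columns and groups follow the sample titles. A treatment label of Cyclo(Pro-Tyr) replicate 2 also carries the words for replicate 1.

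Symbols came from an NCBI RefSeq table of WBcel235, which matched 21890 tags. Exon lengths and overlaps came from Ensembl release 115 of WBcel235, for 21871 tags. The test was that of edgeR 4.0.16, run in R 4.3.3 (quasi-likelihood test, filterByExpr defaults, TMM, treatment as the only term, Benjamini-Hochberg adjustment over 19439 genes, threshold 0.05). The filter left out 2456 genes. The standard error is the fold change divided by the square root of F. The fit was tested on simulated data. Alternatives were other scalings and filters, DESeq2 1.42.0, limma-voom (limma 3.58.1), legacy and robust edgeR fits, a replicate block and fits without each library. A count of 0 allows up to 3 counts, equal to 0.0566 to 0.0746 CPM. Such limits and Poisson intervals cover counting error only.

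The 8 genes, 8 pathway lists and 9 marker lists were chosen with earlier results of these data known. The rule for named genes took the 8, plus the called genes and the 2 with the smallest p of each pathway list. It also took the 3 nearest in pattern to the gene with the widest range. Genes named outside this rule, among them *dhs-28*, *acs-7* and single marker genes such as *act-5*, were named with their values known. The design also planned a motif search in promoters, which was not run, and no sequences were used here. Figures were drawn with matplotlib 3.10.9.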

Additional observations from a re-analysis of the deposited data

How the results depend on the processing

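The direction of *daf-2*, *daf-16*, *daf-7*, *daf-28*, *daf-9*, *daf-12* and *daf-22* held in each alternative run for them. That of *daf-36* was negative with total counts, at -0.017, with the replicate block, at -0.018, and without some libraries, where its log2 fold change ran from -0.33 to 0.28. Of the 8 genes 1 was called, and of the 96 tested pathway list genes 5, where 2.05% of all tested genes were. Both counts and the 398 calls over all genes kept within 1.5 times with DESeq2 size factors, no filter and the legacy fit. Upper-quartile scaling gave 841 calls and 4 of the 8 genes. Total counts gave 215 calls and 3 pathway genes. The filter of 5 CPM in 2 libraries gave 0 calls by edgeR at each of the 3 levels, with 3736 genes at an unadjusted p under 0.05, and *daf-28* did not pass it. DESeq2's Wald test gave 1789 calls, 4 of the 8 genes and 20 pathway genes. The robust fit called 3 of the 8 and limma-voom 2. Without 1 library, calls ran from 0 to 4296 over all genes, from 0 to 5 for the 8 genes and from 0 to 32 for pathway genes. The lone library of a group was then assumed to vary like the other group, and prior degrees of freedom ran from 4.93 to 63.1. For all of these changes, the cause was not tested.

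The libraries share only replicate numbers. The replicate block gave 221 calls over all genes, with 3963 genes at an unadjusted p under 0.05. It called 0 of the 8 genes, with *daf-16* at an edgeR adjusted p of 0.0605. It called 2 pathway genes, *hsp-12.6* and *pes-2.1*. The calls of *ist-1*, *ncr-2* and *sip-1* were lost there, at edgeR adjusted p of 0.0756, 0.0695 and 0.0622. Deviations of same-numbered libraries correlated at -0.202, and a crossed pairing, chosen after seeing the data, gave 4581 calls. The *daf-28*, *daf-9* and *daf-36* genes had 142 to 394 counts per library. Poisson intervals of 95% did not overlap between the DMSO libraries for *daf-9* or between the treated libraries for *daf-36*, so those replicates differed beyond counting error. The same held for genes with more counts. It held between the DMSO libraries for *daf-2*, *daf-16*, *daf-7* and *daf-12*, and between the treated libraries for *daf-2*, *daf-16*, *daf-7* and *daf-22*.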
